A study of Homo sapiens with 6 samples.

Results

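The nuclear genes that encode subunits of the mitochondrial respiratory chain and of ATP synthase were followed in SW1353, an established human cell line from a chondrosarcoma (a cartilage-forming cancer of bone). Members were set by a rule on gene symbols, with earlier results of these data known. It took NDUFA, NDUFB, NDUFC, NDUFS and NDUFV genes for complex I, SDHA to SDHD for complex II, and UQCR genes and CYC1 for complex III. For complexes IV and V it took listed COX and ATP5 genes, without some tissue isoforms and later-named subunits such as COX6B2 and ATP5MD. This gave 81 genes of the 60691 in the table, namely 39 for complex I, 4 for complex II, 9 for complex III, 13 for complex IV and 16 for complex V. Grouping by symbol counts NDUFA4 and NDUFA4L2 with complex I throughout, although NDUFA4 is now placed with complex IV. Counts were high enough for a test in 79 of the 81. The exceptions were COX4I2 and COX7A1, both described below.

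Complexes I to IV sit in the inner mitochondrial membrane and pass electrons from NADH and succinate to oxygen, while complexes I, III and IV pump protons. Complex V, ATP synthase, uses the resulting proton gradient to make ATP. Cells in low oxygen are known to exchange some subunits for alternative forms: NDUFA4L2, a paralog of NDUFA4, and COX4I2, a paralog of COX4I1, are both described as targets of the hypoxia-inducible factors (HIFs). HIF-2α is encoded by EPAS1.

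Both groups were infected with a lentivirus that delivers a short hairpin RNA (shRNA), were grown in 3% oxygen, were collected 48 h after seeding, and had 3 biological replicates each. The shfirefly group carried a hairpin against firefly luciferase, which human cells lack. The shSIRT1 group carried a hairpin that its labels assign to SIRT1, a deacetylase that consumes NAD+, and the question was whether SIRT1 is tied to HIF-2α target transcription. No group was kept at a higher oxygen level, 1 hairpin label was used per group, and all libraries came from 1 cell line.

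Levels are given as CPM, counts relative to a library of fixed size after TMM scaling. A mean is followed by ± the SD of its 3 libraries, and a log2 fold change by ± its standard error (SE). The 6 libraries held 24993064 to 32044191 counts. SIRT1 fell from 24.9 ± 0.983 to 13.6 ± 0.952 CPM (n = 3), and EPAS1 fell from 456 ± 40.7 to 232 ± 10.5 CPM (n = 3). The target of the hairpin is SIRT1 in the titles, the treatment labels and the design text, but EPAS1 in the treatment protocol, and both genes fell. HIF1A, which encodes HIF-1α, stood at 865 ± 51.5 and 881 ± 11.2 CPM (n = 3) and did not pass the test; it turned to a log2 fold change of -0.18 (adjusted p = 0.0004) when GC content and transcript length entered as an offset. Of the 9 chondrocyte markers only 3 had enough counts for a test (SOX9 at 43.7 ± 2.53, MATN3 at 3.77 ± 0.254 and ACAN at 1.51 ± 0.269 CPM in shfirefly). In shSIRT1, SOX9 (log2 fold change 0.28 ± 0.05 SE) and MATN3 (0.35 ± 0.13 SE) rose, while ACAN fell (-1.16 ± 0.29 SE). The defining cartilage genes COL2A1, COL9A1 and COMP were at or near 0. COL2A1 had 2, 1 and 0 raw counts in shfirefly and 8, 19 and 3 in shSIRT1, too few for a test. All 4 tested mesenchymal markers (VIM, COL1A1, COL1A2 and FN1) fell; that list summed to 31173 to 34491 CPM across the shfirefly libraries and 19503 to 20552 CPM in shSIRT1. Epithelial markers summed to 308 to 318 and 355 to 372 CPM, nearly all of it keratins 8 and 18 (KRT8 and KRT18), with EPCAM and CDH1 near 0. Leukocyte markers summed to at most 0.419 CPM and endothelial markers to at most 1.26 CPM in any library. The part of these marker differences in the results below was not tested. In bulk RNA, a change in the RNA of every cell and a change in the share of cells cannot be told apart.

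The subunits changed in both directions and by small amounts. In shSIRT1, 22 of the 79 tested subunits rose, 15 fell and 42 did not pass the test (edgeR quasi-likelihood test, Benjamini-Hochberg adjusted p under 0.05 over 16591 genes). The called share was 46.8%, against 52.8% of all genes tested; 27.8% of the subunits rose (all genes 26.8%) and 19.0% fell (all genes 26%). The median log2 fold change of the subunits was 0.03, with a range of -1.30 to 0.74, and that of all genes tested was 0.005. The interquartile range of the subunits was -0.12 to 0.18, narrower than the -0.29 to 0.28 of all genes tested. Only NDUFA4L2 and ATP5MC1 were called with a change of at least 1.5-fold, 2 of 79, where 16.8% of all genes tested were. For 44 subunits the groups had separate CPM ranges (55.7%, against 59.7% of all genes tested), with shSIRT1 higher in 25 and lower in 19.

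The balance of rises and falls depended on the scaling. With library totals alone, a scaling that moved the median of all genes by 0.12 on the log2 scale, 41 subunits rose and 8 fell; with upper-quartile factors 15 rose and 24 fell. The offset for GC content and length gave 36 rises and 14 falls. Called in the same direction under all 15 alternative settings were 14 of the 22 rises and 7 of the 15 falls. Calls nearest the threshold were SDHA (adjusted p = 0.027), UQCRC2 (0.036) and COX5B (0.046) inside it, and NDUFA5 (0.0501), NDUFB5 (0.056), NDUFB11 (0.058) and UQCRQ (0.060) outside it.

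**Figure D1:**
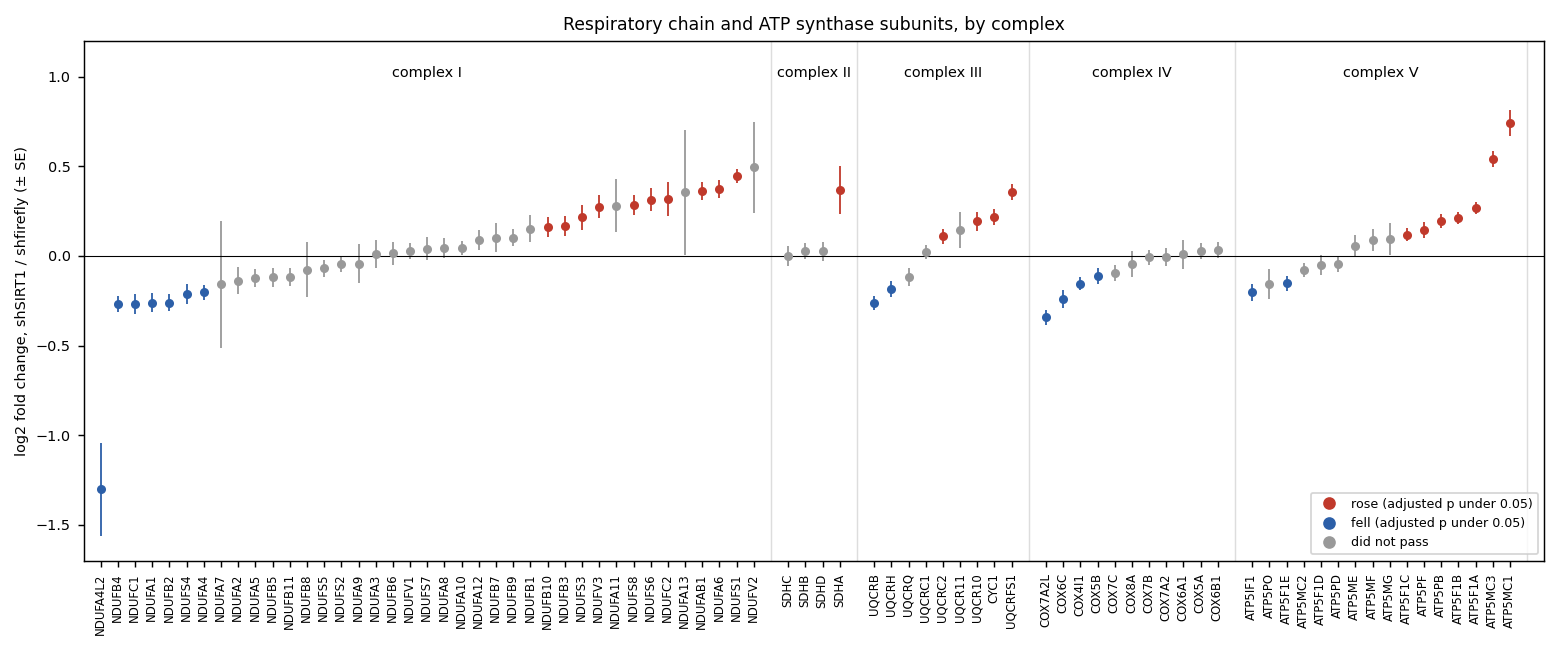
Log2 fold change of shSIRT1 against shfirefly (vertical axis) for each of the 79 tested subunits (horizontal axis), grouped by complex and ordered by size; points are edgeR estimates, bars are ± 1 standard error, and colours give the call at an adjusted p under 0.05. NDUFA4L2 at -1.30 and ATP5MC1 at 0.74 lie farthest from 0, and no complex IV subunit is coloured as a rise.

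Complex I, the NADH dehydrogenase, had 10 of its 39 subunits higher in shSIRT1 (25.6%), 7 lower (17.9%) and 22 that did not pass. Of all genes tested 26.8% rose and 26% fell. Its 7 nuclear core subunits carry the flavin and the iron-sulfur clusters of the peripheral arm. Among these, NDUFS1, NDUFS3 and NDUFS8 rose (42.9%), none fell and the median log2 fold change was 0.21. The core rises numbered 2 without shfirefly replicate 3 or without shSIRT1 replicate 2, where NDUFS3 did not pass. Of the 32 accessory subunits 7 rose and 7 fell (21.9% each), with a median of 0.01. That split moved to 4 rises and 8 falls without shfirefly replicate 1, to 5 and 12 with upper-quartile factors, to 14 and 5 with library totals alone and to 12 and 8 with the GC content and length offset. With library totals alone 20 complex I subunits rose and 5 fell, and with upper-quartile factors 7 rose and 12 fell. No core subunit was called lower under either scaling.

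NDUFS1, the largest subunit and a carrier of iron-sulfur clusters, stood at 109, 106 and 112 CPM in shfirefly and at 149, 151 and 145 CPM in shSIRT1. All shSIRT1 libraries were above all shfirefly libraries, by 1.36-fold (log2 fold change 0.45 ± 0.04 SE, adjusted p = 4e-09). NDUFA6, an accessory subunit of the LYR motif family, rose from 45.5 ± 2.10 to 59.0 ± 2.05 CPM (n = 3; log2 fold change 0.37 ± 0.05 SE). NDUFAB1, the mitochondrial acyl carrier protein, to which LYR proteins bind, rose from 37.0 ± 0.288 to 47.6 ± 1.14 CPM (n = 3; log2 fold change 0.36 ± 0.05 SE). For either gene the groups were fully separated.

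All 7 falls in complex I were in genes counted as accessory subunits, among them NDUFA4L2 and NDUFA4, which are grouped here by symbol. NDUFB4, of the membrane arm, fell from 70.6 ± 2.43 to 58.6 ± 0.687 CPM (n = 3; log2 fold change -0.27 ± 0.05 SE, adjusted p = 3.7e-05). NDUFC1 fell from 44.3 ± 1.43 to 36.7 ± 1.61 CPM (n = 3; log2 fold change -0.27 ± 0.05 SE, adjusted p = 0.00025). NDUFB2, which had the most counts per kilobase of transcript in the complex (143 CPM per kb in shfirefly), fell from 74.7 ± 2.29 to 62.3 ± 3.43 CPM (n = 3; log2 fold change -0.26 ± 0.05 SE). For these 3 genes the shSIRT1 libraries all lay below the shfirefly libraries, and the genes were called lower under all 15 alternative settings.

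NDUFA4L2 had the largest fall of any subunit. It lies at 57234903 to 57240715 on the reverse strand of chromosome 12 (GRCh38). No annotated gene overlaps it on that strand, and 1 does on the other strand. It drew 60, 44 and 74 raw counts with the control hairpin and 24, 32 and 15 in shSIRT1, or 1.95, 1.63 and 2.38 CPM against 0.781, 1.04 and 0.573 CPM. The ranges did not overlap. The mean fell 2.47-fold, from 1.99 ± 0.381 to 0.799 ± 0.236 CPM (n = 3; log2 fold change -1.30 ± 0.26 SE, adjusted p = 0.00023). It was called lower under all 15 alternative settings, at log2 fold changes of -1.54 to -1.11.

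NDUFA4, its abundant paralog, was first assigned to complex I and is now placed with complex IV. The shfirefly libraries had 99.5, 106 and 98.7 CPM and the shSIRT1 libraries 89.1, 86.7 and 88.2 CPM. The groups were fully separated, but the change was small (log2 fold change -0.20 ± 0.04 SE, adjusted p = 0.00033) and did not pass with library totals alone (-0.08, adjusted p = 0.088). Within a library, NDUFA4L2 made up 1.92, 1.51 and 2.36% of the counts of the pair in shfirefly, and 0.870, 1.19 and 0.645% in shSIRT1. The share was thus lower in all shSIRT1 libraries, by 1.03 percentage points on average (two-sided exact permutation p = 0.1, the lowest that 3 against 3 can give; adjusted p = 0.1 over 4 shares). Counting error alone spans much of this gap in the closest libraries: the exact (Clopper-Pearson) 95% interval was 1.1 to 2.02% for shfirefly replicate 2 and 0.814 to 1.67% for shSIRT1 replicate 2.

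**Figure D2:**
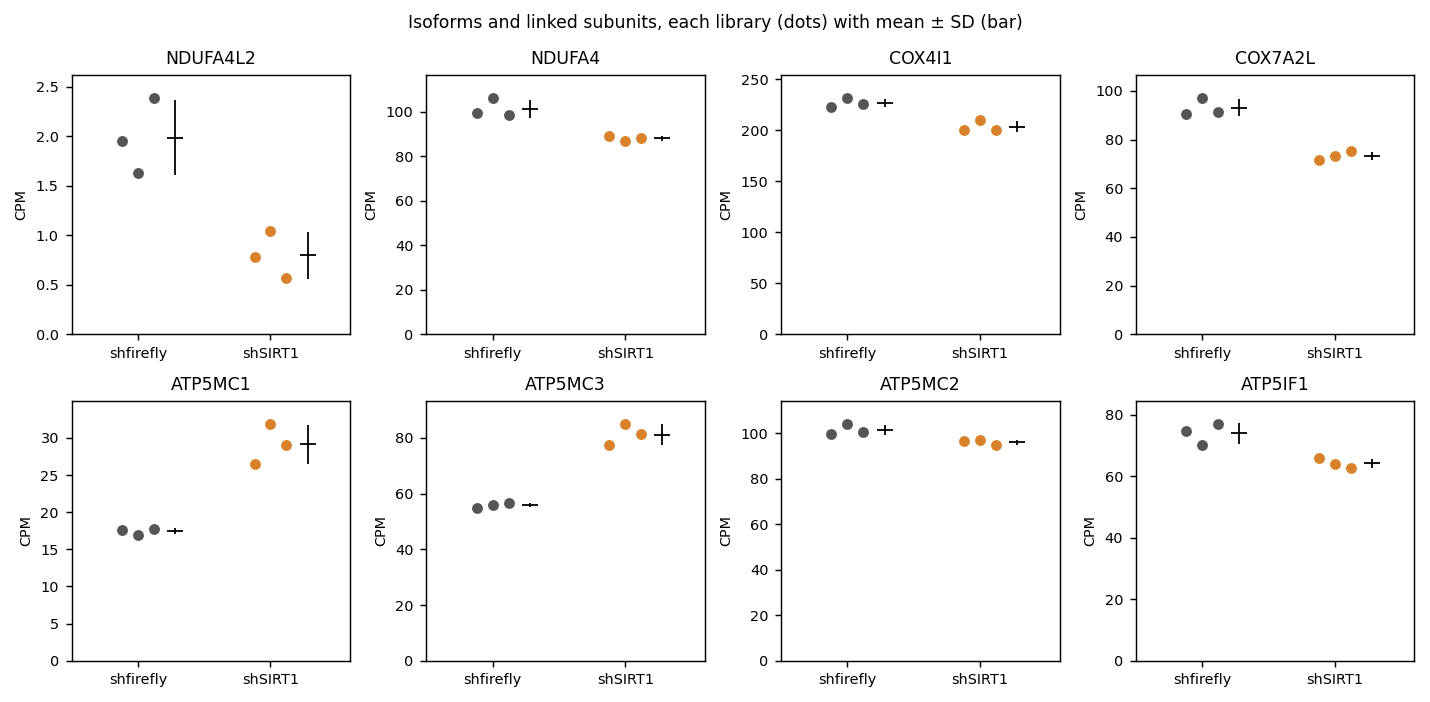
CPM (vertical axis, from 0, a separate scale in each panel) of 8 isoforms and linked subunits in each library (dots: grey shfirefly, orange shSIRT1), with the mean ± SD of 3 libraries beside them. In every panel the dots of the groups are separate, with shSIRT1 higher only for ATP5MC1 and ATP5MC3; ATP5MC2 did not pass the test.

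Complex II, succinate dehydrogenase, showed little change with TMM scaling. SDHB, the iron-sulfur subunit, stood at 67.5 ± 1.61 and 68.7 ± 1.5 CPM in shfirefly and shSIRT1 (n = 3). The membrane anchors SDHC, at 41.4 ± 1.18 and 41.3 ± 3.01 CPM, and SDHD, at 43.1 ± 1.85 and 43.8 ± 0.539 CPM, also did not pass. The log2 fold changes of these 3 lay between -0.001 and 0.03, each with an adjusted p of at least 0.67. With library totals alone SDHB (0.146, adjusted p = 0.0070) and SDHD (0.147, 0.019) were called higher, while SDHC was not (0.120, 0.079). With the GC content and length offset SDHB was called higher (0.134, adjusted p = 0.020), and SDHC (-0.125, 0.099) and SDHD (-0.032, 0.67) did not pass. SDHC had the most counts per kilobase of the complex.

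SDHA, the flavoprotein that oxidises succinate, was called higher but at low counts. Its level was 4.88, 4.25 and 3.96 CPM in shfirefly and 5.47, 6.42 and 4.96 CPM in shSIRT1, and the lowest shSIRT1 library lay just above the highest shfirefly library. The log2 fold change of 0.37 ± 0.13 SE (adjusted p = 0.027) passed in 10 of the 15 alternative settings. It was lost with DESeq2 (adjusted p = 0.072), with upper-quartile factors (0.054), and without shfirefly replicate 2 (0.070), shfirefly replicate 3 (0.095) or shSIRT1 replicate 2 (0.16). SDHA reached only 2.07 CPM per kb in shfirefly, and its 3 named pseudogenes together held 258% as many counts as SDHA itself. SDHAP1 stood at 11.6 ± 1.38 and 11.6 ± 0.154 CPM (n = 3), with no call. The treatment of reads that match several places is not given in the sources used here, so the SDHA values are uncertain.

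In complex III, which passes electrons from ubiquinol to cytochrome c, 4 of 9 subunits rose (44.4%) and 2 fell (22.2%). Of all genes tested 26.8% rose and 26% fell. The rises included both nuclear subunits that carry a redox group. UQCRFS1, the Rieske iron-sulfur protein, stood at 59.2, 62.0 and 62.1 CPM in shfirefly and 75.1, 79.6 and 79.9 CPM in shSIRT1. All shSIRT1 libraries were higher, 1.28-fold on average (log2 fold change 0.36 ± 0.05 SE, adjusted p = 1e-06). Its named pseudogenes held 2.50% as many counts, and of these UQCRFS1P1 rose as well (log2 fold change 0.63 ± 0.22 SE, adjusted p = 0.020). CYC1, cytochrome c1, rose from 65.5 ± 1.74 to 76.1 ± 2.41 CPM (n = 3; log2 fold change 0.22 ± 0.05 SE).

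The small subunit UQCR10 rose from 42.1 ± 2.05 to 48.2 ± 1.62 CPM (n = 3; log2 fold change 0.19 ± 0.05 SE, adjusted p = 0.0041). UQCRB, which binds near the ubiquinone site and had the most counts per kilobase of the complex, fell from 146, 145 and 141 CPM to 117, 118 and 125 CPM (log2 fold change -0.26 ± 0.04 SE, adjusted p = 1e-05), with separate ranges. UQCRH, the hinge protein that contacts cytochrome c1, fell from 90.9 ± 4.2 to 80.0 ± 2.29 CPM (n = 3; log2 fold change -0.18 ± 0.04 SE). The fall of UQCRH did not pass with library totals alone (adjusted p = 0.23) or with the GC content and length offset (0.47), while that of UQCRB passed under both.

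Complex IV, cytochrome c oxidase, was the complex without a rise: none of its 11 tested subunits was called higher, 4 fell (36.4%) and 7 did not pass. Of all genes tested 26.8% rose and 26% fell. NDUFA4, which fell, was counted with complex I by its symbol and is not among the 11. The median log2 fold change of the 11 was -0.05. With library totals alone 3 complex IV subunits rose and 2 fell, and with the GC content and length offset 2 rose and 4 fell, so the absence of rises was not kept under those settings. Its mitochondrially encoded subunits were not analysed here.

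COX7A2L, a relative of COX7A2 known as a factor that joins complexes III and IV into supercomplexes, fell most. Its levels were 90.5, 97.0 and 91.5 CPM in shfirefly and 71.6, 73.2 and 75.1 CPM in shSIRT1, and the groups were well apart. The fall was 1.27-fold (log2 fold change -0.34 ± 0.04 SE, adjusted p = 9.5e-07) and was called under all 15 alternative settings. COX7A2L lies at 42333546 to 42425088 on the reverse strand of chromosome 2 (GRCh38). COX6C, a small membrane subunit, fell from 76.0 ± 4.69 to 64.2 ± 3.04 CPM (n = 3; log2 fold change -0.24 ± 0.05 SE) and was called lower under the same 15 settings.

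COX4I1, the ubiquitous form of the subunit that regulates the oxidase by ATP, had the most counts per kilobase of the complex (286 CPM per kb in shfirefly). The shfirefly libraries had 223, 232 and 226 CPM and the shSIRT1 libraries 200.9, 210.4 and 200.2 CPM, with all shSIRT1 libraries lower. The fall was 1.11-fold (log2 fold change -0.15 ± 0.04 SE, adjusted p = 0.0014), and with library totals alone it came to -0.03 (adjusted p = 0.43). COX5B, a zinc-binding subunit, fell by the least (log2 fold change -0.11 ± 0.05 SE, adjusted p = 0.046) and was called lower in only 5 of the 15 alternative settings. Its log2 fold change turned to 0.01 with library totals alone (adjusted p = 0.84) and to 0.03 with the GC content and length offset (0.65).

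COX4I2 and COX7A1, the hypoxia-linked and muscle forms among the COX genes followed, were practically not detected. COX4I2 had 1 count in shfirefly replicate 2 and none in the other 5 libraries, so its share of the COX4I1 and COX4I2 counts was at most 0.0429 to 0.0572% in the libraries with no count. COX7A1, the heart and muscle paralog of COX7A2, had 0 counts in every library, which allows a share of up to 0.161 to 0.210% of the pair's counts. These limits rest on 3 counts per library and cover counting error only. COX7A2 itself stood at 57.9 ± 2.28 and 57.6 ± 3.13 CPM (n = 3; log2 fold change -0.01 ± 0.05 SE, adjusted p = 0.94), with overlapping ranges. A difference in COX4I2 or COX7A1 was therefore not detectable at this depth.

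Complex V, ATP synthase, had 7 rises (43.8%) and 2 falls (12.5%) among its 16 members, with a median log2 fold change of 0.09. Of all genes tested 26.8% rose and 26% fell. By region, 3 of the 5 F1 subunits (ATP5F1A to ATP5F1E, central stalk included) rose and 1 fell. Of the 3 c-subunit genes 2 rose, as did 2 of the 4 peripheral stalk genes, and none of the 3 other membrane subunits passed. Of the stalk genes 1 rose without shfirefly replicate 1, 1 fell without shfirefly replicate 3, and 1 rose and 1 fell without shSIRT1 replicate 3. ATP5F1B, the catalytic beta subunit and the gene with the most counts per kilobase among all members tested (288 CPM per kb in shfirefly), rose from 530.3 ± 3.48 to 614 ± 18.2 CPM (n = 3; log2 fold change 0.21 ± 0.04 SE, adjusted p = 2.8e-05). ATP5F1A, the alpha subunit, rose from 329 ± 2.86 to 396 ± 5.52 CPM (n = 3; log2 fold change 0.27 ± 0.03 SE, adjusted p = 1.1e-06). ATP5F1E, the small epsilon subunit of the central stalk, fell from 125 ± 3.59 to 112 ± 3.74 CPM (n = 3; log2 fold change -0.15 ± 0.04 SE), a call lost with library totals alone (adjusted p = 0.51).

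The c subunits form the rotating membrane ring of the enzyme, and 3 nuclear genes encode the same mature protein with different import sequences. ATP5MC1 had 17.6, 17.0 and 17.7 CPM in shfirefly and 26.5, 31.8 and 29 CPM in shSIRT1. Every shSIRT1 library was well above every shfirefly library, by 1.67-fold on average (log2 fold change 0.74 ± 0.07 SE, adjusted p = 2e-08). ATP5MC3 had 55.0, 56.1 and 56.5 CPM in shfirefly and 77.4, 84.9 and 81.5 CPM in shSIRT1, again without overlap, a 1.45-fold rise (log2 fold change 0.54 ± 0.05 SE, adjusted p = 3.1e-09). ATP5MC2, the most abundant of them per kilobase, had 99.8, 103.8 and 100.4 CPM in shfirefly and 96.3, 97.0 and 94.7 CPM in shSIRT1. All 3 shSIRT1 libraries were lower, but the log2 fold change of -0.08 ± 0.04 SE did not pass (adjusted p = 0.11) and turned to 0.04 with library totals alone and 0.01 with the GC content and length offset.

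Within the counts of these 3 genes the make-up differed between the groups. The measure was added after their values had been seen, and a factor for a whole library does not affect it. The GC content and length offset differs between genes. It gave log2 fold changes of 0.82 for ATP5MC1, 0.43 for ATP5MC3 and 0.01 for ATP5MC2. The ATP5MC1 share was 10.2, 9.59 and 10.1% in shfirefly and 13.3, 14.9 and 14.1% in shSIRT1. The ATP5MC3 share was 31.9, 31.7 and 32.4% in shfirefly and 38.7, 39.7 and 39.7% in shSIRT1. The ATP5MC2 share was 57.9, 58.7 and 57.5% against 48.1, 45.4 and 46.1%, lower in all shSIRT1 libraries by 11.5 percentage points on average (two-sided exact permutation p = 0.1 for each share, the lowest possible; adjusted p = 0.1 over 4 shares). Counts of the 3 genes totalled 4784 to 6556 per library.

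**Figure D3:**
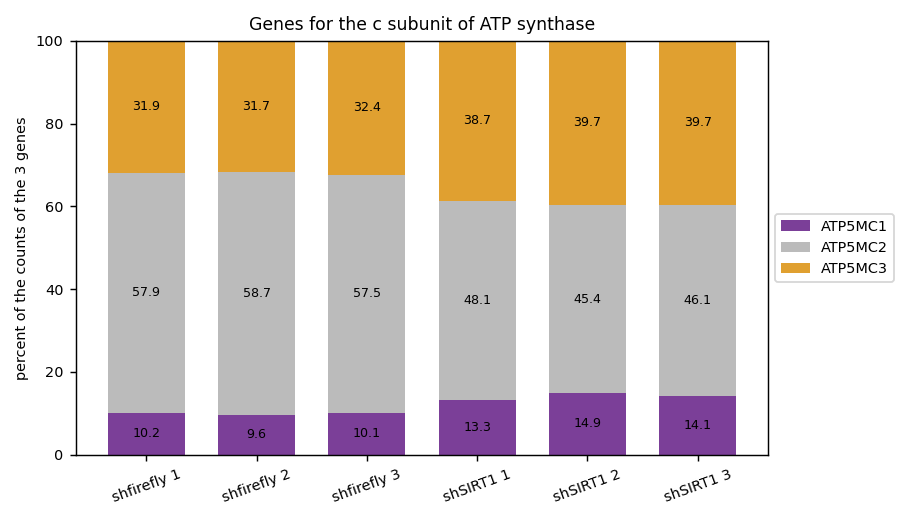
Percent of the summed counts (vertical axis) of ATP5MC1, ATP5MC2 and ATP5MC3 in each of the 6 libraries (horizontal axis, 1 stacked bar per library). ATP5MC2 takes 57.5 to 58.7% in the shfirefly libraries and 45.4 to 48.1% in the shSIRT1 libraries.

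ATP5MC1 lies at 48892765 to 48895871 on the forward strand of chromosome 17 (GENCODE 29, GRCh38). The stretch just before it is shown because this gene had the largest rise of all members; its RefSeq sequence (GRCh38.p14, forward strand, chr17:48892537-48892764) holds the letters CCAAT in 3 places, printed in capitals:
ATP5MC1: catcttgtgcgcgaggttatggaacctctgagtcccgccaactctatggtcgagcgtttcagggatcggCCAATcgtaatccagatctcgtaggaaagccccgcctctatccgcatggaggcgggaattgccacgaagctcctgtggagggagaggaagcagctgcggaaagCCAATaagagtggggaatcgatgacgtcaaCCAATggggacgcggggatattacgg
CCAAT is the core of the site bound by nuclear factor Y, and a match here is a description of the letters only. On either strand, 22 of the 64 members with a RefSeq promoter window held CCAAT (34.4%), against 39.7% of 27305 genes with such a window.

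ATP5IF1, the inhibitor that stops ATP synthase from hydrolysing ATP when the proton gradient fails, fell from 74.7, 70.3 and 76.9 CPM to 65.9, 64.1 and 62.7 CPM. The ranges did not overlap (log2 fold change -0.20 ± 0.05 SE, adjusted p = 0.00091), but the call was lost with library totals alone (adjusted p = 0.15) and with the GC content and length offset (0.071). ATP5PB, of the peripheral stalk, rose from 122 ± 2.59 to 139.8 ± 5.57 CPM (n = 3; log2 fold change 0.19 ± 0.04 SE).

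Summed over members, complex IV and complex V moved apart, while the other complexes stayed within a few percent. Complex V members summed to 1757 ± 12.2 CPM in shfirefly and 1950 ± 20.6 CPM in shSIRT1 (n = 3), a ratio of 1.11. Complex IV members summed to 893 ± 21.5 and 828 ± 14.6 CPM (n = 3), a ratio of 0.928. The ratios were 1.03 for complex I, 1.02 for complex II and 1.01 for complex III. The sums are dominated by the most abundant genes, and the shift of 0.12 on the log2 scale between TMM and library totals is of the same size as these ratios. Such a shift moves all complexes together, so which of them stayed within a few percent depends on the scaling. As a share of raw counts all members together made up 0.486% ± 0.00317 in shfirefly and 0.547% ± 0.00425 in shSIRT1 (n = 3).

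**Figure D4:**
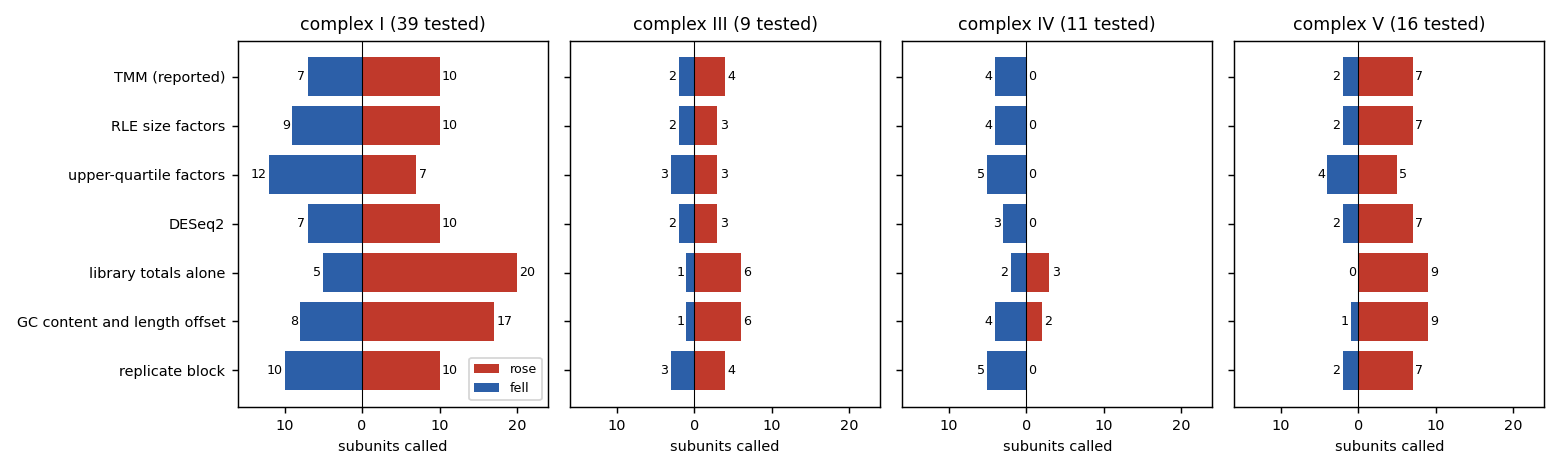
Number of subunits called higher (red, to the right) and lower (blue, to the left) in shSIRT1 (horizontal axis) under 7 settings (vertical axis) for complexes I, III, IV and V. Complex IV has 4 falls and 0 rises as reported and 2 falls and 3 rises with library totals alone; complex V has 7 rises as reported and 5 to 9 across the settings.

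Low levels and overlapping annotation marked a few members. Averaged over all libraries, 9 tested subunits lay under 10 CPM, and 7 of these overlap another gene on the same strand, against 21 of the 70 subunits at 10 CPM or more. NDUFV2, a core subunit, stood at 1.09 ± 0.141 and 1.55 ± 0.387 CPM (n = 3; log2 fold change 0.49 ± 0.25 SE, adjusted p = 0.11). NDUFA7 and NDUFA13 were lower still, at 0.570 ± 0.0832 and 0.513 ± 0.106 CPM in shfirefly (n = 3), and did not pass either. Named pseudogenes held more than 10% as many counts as the member for only 3 subunits: SDHA, NDUFV2 (103%) and COX6A1 (29.7%). Of the 28 members overlapped on the same strand 8 rose (28.6%) and 2 fell (7.14%, or 4 members without shfirefly replicate 3). Of the 51 tested members without such an overlap 14 rose (27.5%) and 13 fell (25.5%). Of all genes tested 26.8% rose and 26% fell. The part of read assignment in these values was not tested. Among the 70 members at 10 CPM or more 21 rose and 14 fell, a called share of 50% where 67.3% of all genes at that level were called.

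Assembly factors, which build the complexes and are not part of them, rose more often than they fell. Of 52 tested, 18 rose, 6 fell and 28 did not pass, with a median log2 fold change of 0.11. These are 34.6% and 11.5%, where 26.8% and 26% of all genes tested rose and fell. For complex III 4 of 6 rose, among them LYRM7 (log2 fold change 0.48 ± 0.10 SE), a chaperone of the Rieske protein, and BCS1L (0.47 ± 0.08 SE), which moves that protein through the membrane. For complex IV 9 of 23 rose and 5 fell. COA7 rose from 14.1 ± 1.01 to 28.9 ± 2.29 CPM (n = 3; log2 fold change 1.04 ± 0.08 SE, adjusted p = 2.9e-10), and SCO2, a copper chaperone of the oxidase, rose from 6.03 ± 0.861 to 9.97 ± 0.396 CPM (n = 3; log2 fold change 0.72 ± 0.11 SE). COX20 (log2 fold change -0.33 ± 0.04 SE) and COA5 (-0.32 ± 0.09 SE) fell. Complex I assembly factors gave 3 rises of 14, led by NDUFAF4 (log2 fold change 0.77 ± 0.10 SE), and those of complex II none of 4.

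Of 18 tested regulators of mitochondrial biogenesis, a list chosen with earlier results known, 11 rose (61.1%), 2 fell (11.1%) and 5 did not pass, where 26.8% of all genes tested rose and 26% fell. PPARGC1B, a coactivator of the PGC-1 family, rose from 2.08 ± 0.206 to 5.96 ± 0.399 CPM (n = 3; log2 fold change 1.51 ± 0.15 SE, adjusted p = 1.7e-08). PPRC1, another coactivator of that family, rose from 40.1 ± 2.86 to 71.5 ± 6.34 CPM (n = 3; log2 fold change 0.83 ± 0.07 SE). The transcription factors NRF1 (log2 fold change 0.44) and GABPA (0.43) and the mitochondrial DNA packaging factor TFAM (0.39) rose too. PPARGC1A, the best known member of the family and a substrate of SIRT1, did not pass (log2 fold change -0.34 ± 0.15 SE, adjusted p = 0.060). TFB1M (-0.21 ± 0.08 SE) and YY1 (-0.15 ± 0.04 SE) fell. TFB1M did not pass without shfirefly replicate 3 (adjusted p = 0.16), shSIRT1 replicate 1 (0.080) or shSIRT1 replicate 2 (0.11).

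Among 12 regulators of respiration linked to hypoxia 7 fell (58.3%, all genes 26%), 4 rose (33.3%, all genes 26.8%) and 1 did not pass. MXI1, a MYC antagonist induced by HIF, fell from 164 ± 8.30 to 75.5 ± 4.63 CPM (n = 3; log2 fold change -1.12 ± 0.05 SE, adjusted p = 2.3e-13). The mitophagy receptor BNIP3L fell from 1016 ± 45.5 to 628 ± 15.6 CPM (n = 3; log2 fold change -0.69 ± 0.04 SE), and its relative BNIP3 had a log2 fold change of -0.59 ± 0.03 SE. LONP1, the matrix protease described as degrading COX4I1 in low oxygen, fell as well (log2 fold change -0.47 ± 0.04 SE). FUNDC1, a mitophagy receptor of the outer membrane, rose (0.56 ± 0.07 SE). The other rises of this list were SCO2 (0.72 ± 0.11 SE), CHCHD4 (0.37 ± 0.09 SE) and HIGD1A (0.23 ± 0.06 SE).

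Of 24 tested genes for mobile carriers and for exchange of metabolites and ATP, 8 rose and 5 fell. The called share of 54.2% was near the 52.8% of all genes tested. GPD2, the mitochondrial glycerol phosphate dehydrogenase that feeds electrons to ubiquinone, rose from 82.1 ± 1.43 to 129 ± 4.14 CPM (n = 3; log2 fold change 0.66 ± 0.04 SE). PDSS1, which makes the side chain of ubiquinone, rose (0.61 ± 0.12 SE), while COQ5 (-0.46 ± 0.07 SE) and COQ8B (-0.44 ± 0.08 SE), of later ubiquinone synthesis, fell. Among tissue isoforms and later-named subunits outside the 81 genes, ATP5MD rose (0.17 ± 0.05 SE), and COX6B2, the testis form of a complex IV subunit, fell at low level from 0.952 ± 0.0929 to 0.406 ± 0.138 CPM (n = 3; log2 fold change -1.24 ± 0.35 SE). These context lists, 110 tested genes without the subunits, gave 41 rises and 21 falls, or 37.3% and 19.1%, beside 26.8% and 26% of all genes tested.

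**Figure D5:**
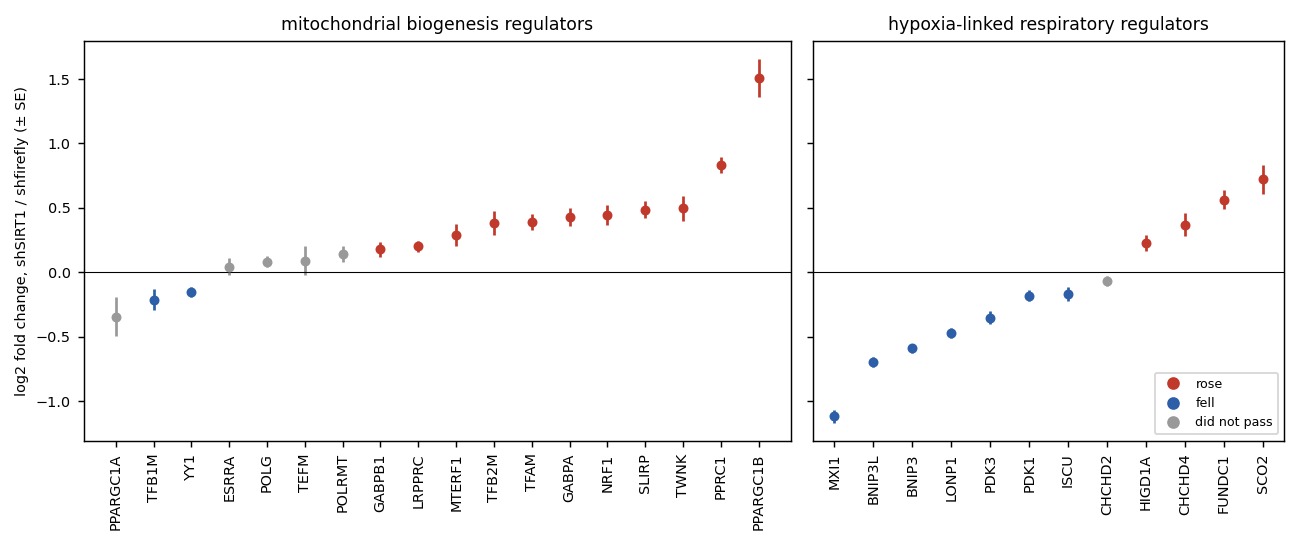
Log2 fold change of shSIRT1 against shfirefly (vertical axis; points are edgeR estimates, bars ± 1 standard error) for 18 regulators of mitochondrial biogenesis and 12 hypoxia-linked regulators of respiration (horizontal axis), coloured by call. PPARGC1B at 1.51 is highest and MXI1 at -1.12 lowest; 11 of the 18 biogenesis regulators are coloured as rises.

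The promoters of the subunits were compared for short motifs tied to nuclear control of respiration, searched on both strands of the RefSeq windows around gene starts (GRCh38.p14; 64 of the 81 members matched). The core of the NRF1 site, GCATGCGC, was in 14 of the 64 members (21.9%) and in 3.68% of all 27305 genes with a window. The letters CCGGAAG, an ETS site of the kind GABPA binds, were in 31.3% of members and 12.2% of all genes, and AAGATGGCG, a YY1 site, in 14.1% and 2.14%. The last bases of the ETS letters can be the first of the YY1 letters. ACGTG, the core of the hypoxia response element, was in 26.6% of members and 24.9% of all genes. GC content of the windows averaged 59.1% for members and 57.5% for all genes. The 27305 genes were not limited to those tested in these cells. A gene counted if any of its windows held the letters, and the number of windows per gene was not matched. The part of either in these shares was not tested.

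The NRF1 core was present among subunits of every class of change: it was in 4 of the 18 matched members that rose, 2 of the 11 that fell and 8 of the 35 that did not pass. Sites from both directions are shown to let them be compared, each read 5′ to 3′ on the strand that carries the core, which is in capitals with 8 bases on either side. The first 4 genes rose, the next 2 fell and ATP5MC2 did not pass; where GC stands just before the core, the opposite strand holds an overlapping core as well. They lie at chr10:7788149-7788172 (ATP5F1C, forward), chr21:25735159-25735182 (ATP5PF, forward), chr22:42090923-42090946 (NDUFA6, reverse), chr5:1801353-1801376 (NDUFS6, reverse), chr2:97645918-97645941 (COX5B, forward), chr3:120596171-120596194 (NDUFB4, forward) and chr12:53676373-53676396 (ATP5MC2, forward) of GRCh38.p14:
ATP5F1C: gcttcggcGCATGCGCgctgaggc
ATP5PF: ctctgtacGCATGCGCtctttgag
NDUFA6: gtagatgaGCATGCGCagcaccca
NDUFS6: gcgctaacGCATGCGCacggcttc
COX5B: agagctggGCATGCGCaatttccg
NDUFB4: cacttcgcGCATGCGCatatcacc
ATP5MC2: ctttccgaGCATGCGCagtcgtca
A match describes these letters and does not show binding, and a window without a match says only that the letters are not in it.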

How the data were processed

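RNA from 3 shfirefly and 3 shSIRT1 libraries was sequenced after a stranded mRNA preparation, per the labels' protocols. Raw read counts per gene were deposited by the authors, per the file headers. The submitters' processing notes name Trimmomatic, STAR and DESeq2 and the build GRCh38; the sources used here give no versions, read counter, strand setting or annotation release. The 6 columns of normalized values were not used.

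The members and gene lists were chosen with earlier results of these data known. Counts passed edgeR's filterByExpr (16591 genes), were scaled by TMM (factors 0.948 to 1.05) and were tested across all genes by edgeR's quasi-likelihood F test (edgeR 4.0.16, robust, group alone) with Benjamini-Hochberg adjustment; rose and fell mean an adjusted p under 0.05. P-values set the group difference against the spread between the 3 replicates, moderated across genes. The design text calls the replicates biological. The chi-square per gene was 2.67 to 5.58 for libraries of the same group and 50.9 to 79.4 for libraries of different groups, and no library repeated another. At 24993064 to 32044191 counts, 0 counts allow up to 0.0967 to 0.115 CPM. Coordinates, overlaps and lengths (median coding transcript) came from GENCODE 29, matching 58459 genes by identifier; promoter sequences from RefSeq. The procedure was tested on simulated counts with 50 changed genes per fold. It recovered 32% of 1.15-fold, 74% of 1.25-fold and 100% of 1.5-fold changes, so small changes can go uncalled. It also called 10 unchanged genes. The changed genes were few among 16361 and all at 10 CPM or more, whereas 52.8% of all genes tested were called in the data. These rates therefore do not carry over to the data or to subunits under 10 CPM.

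Named genes were SIRT1, EPAS1, HIF1A, the isoform sets, ATP5IF1, all of complex II, per complex the 3 largest rises and falls called and the gene with most counts per kilobase, and up to 2 rising and 2 falling called genes per context list. The core subunits of complex I called, ATP5PB, COX5B, NDUFV2, NDUFA7, NDUFA13 and the pseudogenes were named after their values had been seen. So were PPARGC1A, NRF1, GABPA, TFAM, BNIP3, LONP1, CHCHD4 and HIGD1A. Alternatives were RLE and upper-quartile factors, library totals alone, DESeq2 1.42.0, no filter, a filter of 1 CPM in 3 libraries, no robust estimation, a replicate block, an offset for GC content and length (splines with 5 degrees of freedom) and leaving out each library.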

Additional observations from a re-analysis of the deposited data

How the results depend on the processing

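The balance of rises and falls moved with the scaling. Subunits that rose numbered 22 as reported, 41 with library totals alone and 36 with the GC content and length offset; those that fell numbered 15 as reported, 24 with upper-quartile factors and 8 with library totals. Leaving out each library gave 16 to 23 rises, 14 to 19 falls and 32 to 37 calls in all. Totals over all genes and over the context lists stayed within 1.5 times of the reported counts under every setting. The NDUFA4L2 share difference stayed between -0.817 and -1.24 percentage points without any 1 library.

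Some small log2 fold changes changed sign. Of those called as reported, COX5B (-0.11) turned to 0.01 with library totals alone and 0.03 with the GC content and length offset. Others had not passed the test. With library totals alone these were COX7A2 (0.116), SDHC (0.120) and ATP5MC2 (0.0437); with upper-quartile factors HIF1A (-0.0217), SDHB (-0.0246) and SDHD (-0.0236); with the GC content and length offset HIF1A (-0.177), ATP5MC2 (0.00755) and SDHD (-0.0317); with no filter COX7A2 (0.00304) and SDHC (0.00796). Leaving out each library gave -0.00424 to 0.0670 for HIF1A (negative without shfirefly replicate 2), -0.0482 to 0.0322 for COX7A2, -0.0326 to 0.0585 for SDHC (both positive without shfirefly replicate 2 or shSIRT1 replicate 3) and -0.0169 to 0.0470 for SDHD (negative without shfirefly replicate 3). The cause was not tested.

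Replicate numbers did not pair the libraries: deviations of same-numbered libraries correlated at -0.0133, -0.071 and 0.124, and not every library correlated best with its own number. A fit with the replicate block called 22 rises and 20 falls, 42 in all against 37, and the block left the NDUFA4L2 share difference at -1.03 percentage points. Depth limits most the subunits with few counts, among them COX4I2, COX7A1, NDUFA7, NDUFA13, NDUFV2 and NDUFA4L2.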
